A study of Homo sapiens with 16 samples.

Results

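Intergenic regions without an annotated repeat made up 2674 of the 16092 regions (16.6%) in the histone peak table. They are the rows whose detailed annotation reads Intergenic. This means that the peak centre lay outside the genes, promoters, CpG islands and repeats known to the annotation program. The regions came from BJ-5ta cells, human foreskin fibroblasts immortalised with telomerase, as wild type cells or as ΔLEO1 cells, a single CRISPR clone in which LEO1 was targeted in its first exons. Both grew in 10% serum as proliferating cells or in 0.1% serum over 10 days to reach quiescence, and ChIP and input libraries A and B were made of each, 16 libraries in 8 groups. The labels call the ChIP antibody H3, while the methods of the study name an antibody against H3K9me2. All cells carried the same telomerase transgene and all samples received fly chromatin as a spike-in, whose reads were not analysed here.

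H3K9me2, histone H3 dimethylated at lysine 9, is written mainly by the methyltransferases EHMT2 (G9a) and EHMT1 (GLP) and is read by HP1 family proteins. It covers long stretches of silent, gene-poor chromatin, often at the nuclear lamina, so intergenic DNA is a usual place to find it. LEO1 is a subunit of the PAF1 complex, which travels with RNA polymerase II during elongation.

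The ΔLEO1 library A of the ChIP in 10% serum held 21 reads over all regions, of which 4 lay in intergenic regions, and was left out, so ΔLEO1 ChIP in 10% serum is 1 library without a replicate. The other 7 ChIP libraries held 217472 to 366633 reads over the regions and the 8 inputs 111132 to 238490. Intergenic regions held 34691 to 58976 of these reads in the ChIP and 18585 to 38839 in the inputs. An intergenic region had a median of 12 to 20 reads per ChIP library and of 6 to 13 per input, and this depth limits what a single region can show. ΔLEO1 input A in 10% serum had the fewest reads, 111132. It held 0 reads in 86 intergenic regions, against at most 3 such regions in any other input. Some of the input extremes given below are values of this library. Levels are given as CPM, the counts scaled to 1000000 reads over peak regions after TMM normalization, and densities as CPM per kb of region. The labels do not say whether libraries A and B came from separate cultures, so the spread between them may be technical.

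The label was checked against other annotation. Of the 2674 regions, 320 (12.0%) overlapped a 2000 bp window around a transcription start (TSS window) in the second deposited table, and 729 (27.3%) overlapped a gene span of RefSeq on GRCh38.p14, 135 of them a protein-coding gene. None overlapped a miRNA hairpin. The label therefore holds for the gene set of the annotation program, and for 1945 of the regions with the RefSeq gene models. Density in the 729 regions inside a RefSeq gene (73.8 to 76.5 in ΔLEO1 and 71.9 to 74.3 in wild type ChIP) lay close to that in the other 1945 (72.2 to 74.6 and 70.9 to 73.2).

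The promoters that fell inside these regions show what kind of starts the label takes in. They were 27 promoters, each in a region of its own, out of 35116 in the RefSeq table. Of these, 26 belonged to lncRNA genes, against 36.8% of all promoters, and 1 to the olfactory receptor gene OR52I2. They were poor in CpG: 14 of 27 held 4 or fewer CG dinucleotides in 300 bases, as did 29.6% of all promoters, and their median was 4 against 14. The label leaves out CpG islands and the promoters of its own gene set. Both the lncRNA share and the low CpG content thus follow at least in part from the label. A comparison with lncRNA promoters alone was not made. A CG was present in 25 of the 27 and in 96.0% of all promoters. For 13 of them the whole promoter lay inside the region. The 3 of these with the highest ratio of ChIP to input are printed from RefSeq (GRCh38.p14), from 250 bases before the start to 50 after it, with each CG in capitals. They were chosen after their values were seen.
LOC124900609, chr10:130301585-130301884, plus strand: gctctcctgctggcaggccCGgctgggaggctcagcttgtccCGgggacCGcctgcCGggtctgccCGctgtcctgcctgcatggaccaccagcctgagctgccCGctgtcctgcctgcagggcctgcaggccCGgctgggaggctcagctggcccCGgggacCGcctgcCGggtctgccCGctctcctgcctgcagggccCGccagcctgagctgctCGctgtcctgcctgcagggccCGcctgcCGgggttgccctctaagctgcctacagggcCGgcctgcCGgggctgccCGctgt
LOC124902712, chr11:74506960-74507259, plus strand: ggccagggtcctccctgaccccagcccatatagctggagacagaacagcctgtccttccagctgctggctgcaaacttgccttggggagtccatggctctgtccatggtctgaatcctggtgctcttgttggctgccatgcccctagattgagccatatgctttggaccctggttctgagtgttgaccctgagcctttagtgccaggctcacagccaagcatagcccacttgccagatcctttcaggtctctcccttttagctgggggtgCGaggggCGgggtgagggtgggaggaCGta
LOC105370066, chr12:127459698-127459997, plus strand: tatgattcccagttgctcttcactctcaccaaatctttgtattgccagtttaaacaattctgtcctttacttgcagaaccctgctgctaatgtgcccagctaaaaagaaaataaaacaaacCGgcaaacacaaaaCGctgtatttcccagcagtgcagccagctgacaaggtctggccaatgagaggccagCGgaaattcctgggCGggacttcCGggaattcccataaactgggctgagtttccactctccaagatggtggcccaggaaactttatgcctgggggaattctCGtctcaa

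The promoter of LOC124900609 had the highest G and C content of the 27, 75.3%. It held 18 CG, fewer than the 29 of LOC124901657, and the word CCTGCCTGCA occurred in it 4 times, as often as GATATGGAGG in LOC107987177, while 0.296% of all promoters held CCTGCCTGCA on either strand. It lay in the last 5 Mb of chromosome 10, 164752 bp from the start of GLRX3, the gene nearest to it in the table. Its region had 156 and 172 CPM in wild type ChIP in 10% serum, 154 in ΔLEO1 in 10% serum, 126 and 153 in wild type in 0.1% serum and 118 and 107 in ΔLEO1 in 0.1% serum, against a mean of 83.5 in the inputs. The ΔLEO1 libraries in 0.1% serum were the lowest of the 7. The log2 fold change against wild type in 0.1% serum was −0.28 ± 0.27 (SE), which did not pass the test (edgeR, Benjamini-Hochberg adjusted p = 0.83).

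Position set the intergenic regions apart more than width did. Their median width was 755 bp (500 to 3748 bp), against 759 bp for all regions, and 2209 of them were narrower than 1000 bp. Their median distance to the nearest start was 71.7 kb, with a range from 1.03 kb to 1559 kb, against 67.8 kb for all regions, 46.9 kb for intronic regions outside repeats and 99.6 kb for LINE1 regions. By class, 100 lay within 5 kb of a start, 399 at 5 to 20 kb, 1114 at 20 to 100 kb, 972 at 100 to 500 kb and 75 beyond 500 kb. For 14 regions no distance was given. Of those with a distance, 57.0% lay upstream of the nearest start, against 45.5% of all regions, 26.3% of intronic and 47.1% of LINE1 regions.

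Intergenic regions were frequent near chromosome ends. An end is taken here as the 5 Mb next to the outermost start that the TSS table lists on a chromosome. By that measure 544 intergenic regions (20.5%) lay at ends, against 10.2% of all regions, 18.0% of intronic and 3.53% of LINE1 regions. The ends covered 7.97% of the chromosomes between their outermost starts and held 13.0% of the distinct starts. The ends with the most regions were the last 5 Mb of chromosome 10 with 58, the first of chromosome 5 with 58, the last of chromosome 22 with 40, and the last of chromosomes 18 and 6 with 36 each. Both ends of chromosome 3 held none. By chromosome, the most regions lay on chromosomes 2 (262), 10 (207) and 5 (206), while chromosome X held 2 and chromosome Y 1.

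**Figure D1:**
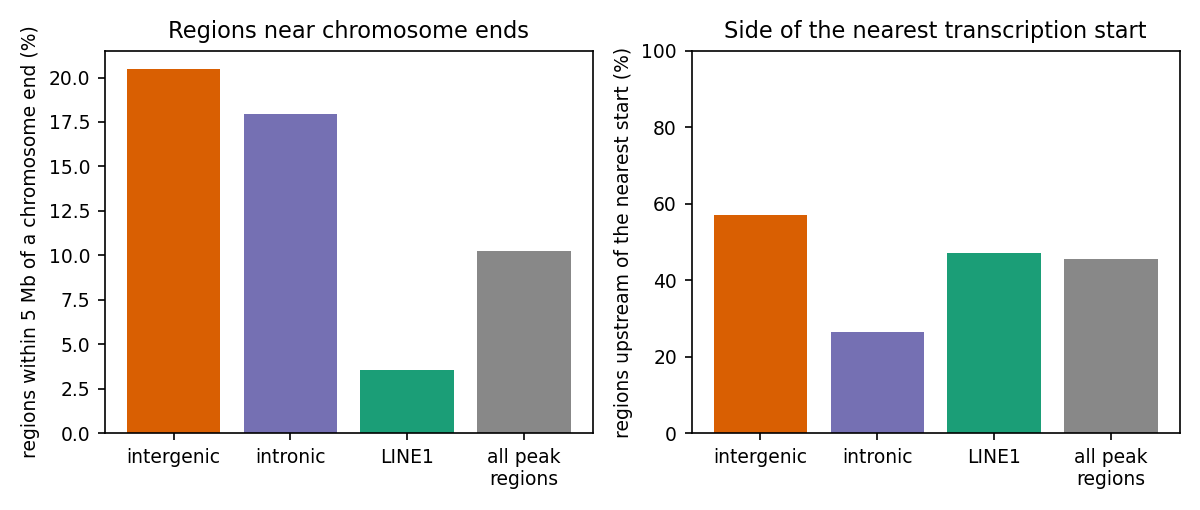
The left panel plots the share of regions (%) within 5 Mb of the outermost listed start of a chromosome and the right panel the share (%) upstream of the nearest start, for intergenic, intronic, LINE1 and all peak regions. Intergenic regions reached 20.5% at ends against 10.2% of all regions, and 57.0% upstream against 45.5%.

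The regions also came in runs. Neighbouring intergenic regions were a median of 336464 bp apart, 835 gaps were under 100 kb, and 156 runs of 3 or more such neighbours held 713 regions, while 1405 regions had no neighbour that near. The longest run held 22 regions at chr10:128387561-129058221, near the lncRNA genes LINC01163 and LINC02667, and covered 2.7% of its 671 kb. Next came 21 regions at chr5:2135021-2685149 near LOC100506858 and LSINCT5, 17 at chr8:141566975-142188059 near MIR1302-7, and 16 at chr10:130716179-131063420 near MIR378C. Of 1762 distinct nearest genes, LINC02667, LOC100506858 and MIR378C each had 15 regions, LINC01029 had 11, and IRX1 and MIR3201 had 10. IRX1 encodes an Iroquois homeobox transcription factor, and SALL3, with 8 regions, a zinc finger transcription factor of limb and neural development.

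Nearest genes were often non-coding. A biotype was found for 2644 regions, of which 38.7% were nearest to a lncRNA gene, 48.8% to a protein-coding gene and 7.03% to a miRNA gene, against 32.2%, 57.2% and 6.21% of all regions. Symbols that begin with LINC were the nearest gene of 22.8% of intergenic regions and of 17.1% of all regions.

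Intergenic regions took a slightly smaller share of the reads in the ChIP than in the inputs. The share of reads over peak regions that lay in them was 16.26% and 16.13% in wild type and 16.26% in ΔLEO1 ChIP in 10% serum, 15.92% and 16.08% in wild type and 16.03% and 15.95% in ΔLEO1 ChIP in 0.1% serum. The 8 inputs gave 16.29% to 16.73%, a mean of 16.58% ± 0.178 (SD, n = 8) against 16.09% ± 0.137 (n = 7) in the ChIP, and no ChIP library reached the lowest input. Over the regions that overlap no TSS window this separation was lost, with 14.07% in the ΔLEO1 ChIP library in 10% serum and 14.03% in the lowest input. The regions make up 16.6% of the length of all regions.

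Relative to the TSS windows of the second table, intergenic regions held more reads in the ChIP than in the input. The regions are peaks, which are picked for high reads. A ratio above 1 was set by that choice and is no separate evidence. Reads in the regions per read in TSS windows were 4.99 and 4.46 times those of the matched input in wild type in 10% serum, 3.89 times in ΔLEO1 in 10% serum, 3.97 and 3.82 times in wild type in 0.1% serum and 3.36 and 3.05 times in ΔLEO1 in 0.1% serum. The ΔLEO1 libraries in 0.1% serum had the lowest values and wild type in 10% serum the highest. All regions together moved in the same way, from 5.01 and 4.50 in wild type in 10% serum to 3.49 and 3.17 in ΔLEO1 in 0.1% serum. Whether the TSS windows themselves changed was not tested, since the fly spike-in reads were not analysed here.

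Levels varied more among regions than among libraries. The mean ChIP level of a region ranged from 23.04 to 317 CPM, with a median of 53.5, and its density from 36.3 to 289 with a median of 72.0. In the inputs the median density was 74.5 and the range 24.2 to 296. Across regions the ratio of ChIP to input, both scaled on peak regions, had a median of 0.973 and lay above 1 in 1186 of 2674. This ratio compares a region with the average peak and not with the genome. Across the 2674 regions log2 ChIP and input density gave a Pearson r of 0.46, a description over regions that share libraries and mappability.

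The densest regions lay mostly off the main chromosomes. By the highest ChIP density with at least 20 reads in each of the 7 libraries, 4 of the top 5 were on separate contigs assigned to chromosomes 14 and 9. The fifth lay on chromosome 21 (chr21:10401911-10402993), 11068 bp upstream of BAGE, and had 186 to 248 CPM in the ChIP and a mean of 229 in the inputs. Together the 18 regions off the main chromosomes had a density of 131 to 162 in the ChIP and 113 to 153 in the inputs, about as high in input as in ChIP. Reads in such sequence can come from near-identical copies elsewhere, so the levels are uncertain.

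Single regions with the highest ratio of ChIP to input, among those with at least 40 input reads, were modest. The highest was 1.91 at chr8:46917628-46918246, 77.1 kb downstream of LINC00293, with 38.4 to 71.2 CPM in the ChIP and a mean of 28.5 in the inputs. Next were regions near LINC00993, SFSWAP, HMX1 and LINC01163 with ratios between 1.70 and 1.77, the last of them inside the longest run. The widest region, 3748 bp at chr21:14073015-14076763 near the pseudogene ANKRD20A11P, had 223 to 349 CPM and an input mean of 268. The next, 3510 bp at chr14:104858968-104862478 and 4545 bp upstream of CEP170B, a centrosomal protein gene, had 258 to 364 and an input mean of 220. The third, 2975 bp at chr9:64011897-64014872 near FLJ43315, had 107 to 246 and an input mean of 196.

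The ratio of ChIP to input was lower far from a start, more in some libraries than in others. In regions within 5 kb of a start the ratio of ChIP to matched input was 1.02 ± 0.0421 (SD, n = 7), and it was 0.999 ± 0.0223 at 5 to 20 kb, 0.971 ± 0.00953 at 20 to 100 kb, 0.955 ± 0.0451 at 100 to 500 kb and 0.935 ± 0.0672 beyond 500 kb. Within 5 kb the libraries in 0.1% serum gave 0.991 and 0.955 in wild type and 0.995 and 1.045 in ΔLEO1, and those in 10% serum 1.056 and 1.025 in wild type and 1.075 in ΔLEO1, so the sera overlapped. At 100 to 500 kb the 4 libraries in 0.1% serum gave 0.900, 0.945, 0.909 and 0.934 and the 3 in 10% serum 0.983, 1.01 and 1.01, without overlap. Beyond 500 kb the wild type libraries in 0.1% serum gave 0.812 and 0.929 and the ΔLEO1 libraries 0.915 and 0.914, against 1.01 and 1.00 in wild type and 0.959 in ΔLEO1 in 10% serum. From the nearest to the farthest class, wild type library B in 0.1% serum thus went only from 0.955 to 0.929, while the ΔLEO1 library in 10% serum went from 1.075 to 0.959. The density itself beyond 500 kb was 65.1 to 70.5 in 0.1% serum and 71.9 to 74.3 in 10% serum, while inputs ranged from 71.0 to 85.3. Wild type library A in 0.1% serum, the lowest, had an input of 80.1, the second highest. With 75 regions in the farthest class the order rests on few reads.

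**Figure D2:**
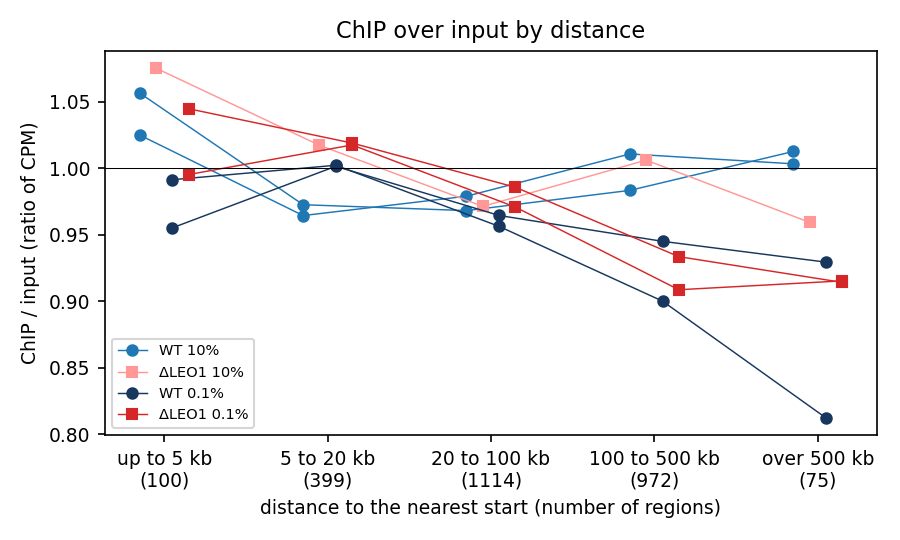
The y axis is the ratio of ChIP to matched input, each in CPM over peak regions, and the x axis the distance class of intergenic regions with the number of regions. Each line is 1 ChIP library. Beyond 100 kb the 4 libraries in 0.1% serum lie between 0.812 and 0.945, below the 3 in 10% serum at 0.959 to 1.01.

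None of the 3 farthest and 3 nearest regions passed the edgeR test in a ChIP comparison. Levels are given here for some of them. The farthest, chr4:179599655-179600419, lay 1559 kb from LINC00290, in a stretch of chromosome 4 where all ΔLEO1 ChIP libraries were below wild type, and had 14.8 to 76.7 CPM in the ChIP. The second, chr14:43274937-43275662, lay 1232 kb from FSCB, a sperm flagellar sheath gene, with 51.1 to 71.0 and an input mean of 53.4, and it overlapped a TSS window of the other table although its annotated distance is long. The third lay on chromosome Y, 1197 kb from TTTY23B. The nearest were 1028 bp upstream of RAB7A, which encodes a late endosomal GTPase, 1046 bp upstream of PKNOX1, a homeodomain factor gene, and 1065 bp upstream of PRPF3, a splicing factor gene, and all of these overlapped TSS windows. At RAB7A the ChIP had 53.9 and 49.3 in wild type and 76.9 in ΔLEO1 in 10% serum, 59.0 and 71.3 in wild type and 82.8 and 149 in ΔLEO1 in 0.1% serum. The ΔLEO1 libraries were the 3 highest of 7, but the fold change over both sera of 0.67 ± 0.30 on the log2 scale did not pass (edgeR, Benjamini-Hochberg adjusted p = 0.40).

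Regions at chromosome ends differed from the other intergenic regions between the groups. At ends the density was 76.3 and 74.6 in wild type and 74.1 in ΔLEO1 in 10% serum, 70.5 and 71.6 in wild type and 66.7 and 64.0 in ΔLEO1 in 0.1% serum, while the 8 inputs lay between 66.9 and 70.0. In the 2112 inner regions it was 72.0 and 72.2 in wild type and 74.6 in ΔLEO1 in 10% serum, 70.5 and 72.2 in wild type and 73.6 and 74.98 in ΔLEO1 in 0.1% serum, with inputs at 74.5 to 78.2. In 0.1% serum both ΔLEO1 libraries were thus lower than either wild type library at ends and higher in inner regions. The higher inner level depends on the scale: with TSS window totals as library sizes the median log2 fold change in this comparison was −0.30 over all regions and −0.30 over intergenic regions.

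The ratio of density at ends to density in inner regions does not depend on any scaling. It was 1.06 and 1.03 in wild type and 0.994 in ΔLEO1 in 10% serum, 0.999 and 0.992 in wild type and 0.906 and 0.853 in ΔLEO1 in 0.1% serum. Inputs ranged from 0.855 to 0.937, with 0.890 and 0.910 in wild type and 0.898 and 0.919 in ΔLEO1 in 0.1% serum. The lowest was ΔLEO1 input A in 10% serum, the input with the fewest reads, and the next was 0.890. The means were 1.05 ± 0.0186 (SD, n = 2) in wild type in 10% serum, 0.995 ± 0.00527 (n = 2) in wild type in 0.1% serum and 0.880 ± 0.0372 (n = 2) in ΔLEO1 in 0.1% serum, so the groups differed by more than the spread between their libraries. With 2 libraries against 2 an exact permutation test cannot go below p = 0.333, and this ratio was looked at after other results were seen.

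The same order appeared in intronic regions and in TSS windows outside peaks, and less clearly in repeats. Intronic regions gave 1.07 and 1.05 in wild type in 10% serum, 1.03 and 0.965 in wild type in 0.1% serum and 0.840 and 0.817 in ΔLEO1 in 0.1% serum. TSS windows that touched no peak region, 27720 at ends and 186722 inner ones, gave 0.830 and 0.801, then 0.797 and 0.783, then 0.749 and 0.725 for these groups, with inputs at 0.813 to 0.930. LINE1 regions, of which 110 lay at ends, gave 0.930 to 0.998 in the ChIP with overlapping groups. The pattern at ends is therefore not particular to intergenic regions.

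**Figure D3:**
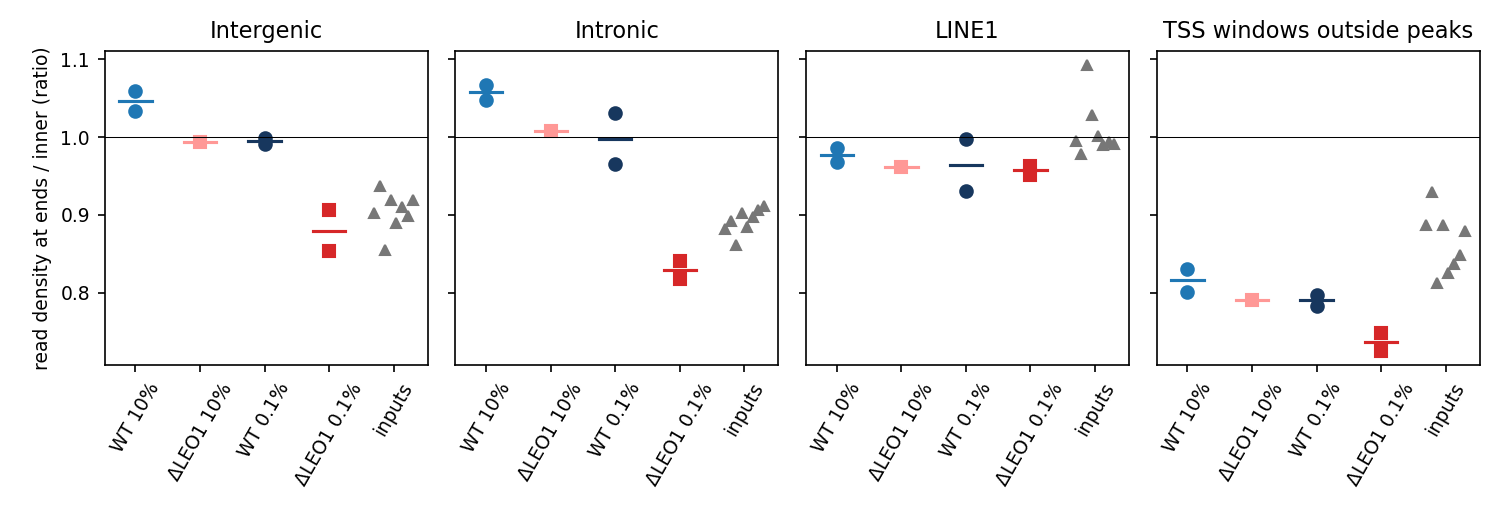
The y axis is the density of reads within 5 Mb of chromosome ends divided by the density elsewhere (a ratio), for intergenic, intronic and LINE1 regions and for TSS windows outside peaks. Each point is 1 library, short lines are means of ChIP groups and triangles are the 8 inputs. Intergenic regions go from 1.06 and 1.03 in wild type in 10% serum to 0.906 and 0.853 in ΔLEO1 in 0.1% serum.

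By single end, most but not all ends shared the direction. Of the 16 ends with 10 or more intergenic regions, the ΔLEO1 pair in 0.1% serum was entirely lower than the wild type pair at 10 and entirely higher at 2. Among the inner regions taken by autosome, 1 of 22 was below and 14 were above. Over all 16092 single regions, 19.4% were below and 18.1% above without overlap. For 0.1% against 10% serum in wild type, 9 of the 16 ends were below and 2 above. Among the inner regions taken by autosome, 4 of 22 were below and 1 was above for serum. Of all single regions, which hold fewer reads than an end, 19.5% were below and 17.7% above. Single regions at ends showed the direction more weakly: 143 of 544 (26.3%) were below and 75 (13.8%) above for ΔLEO1 in 0.1% serum. For serum in wild type 24.4% of the 544 were below and 14.0% above.

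The last 5 Mb of chromosome 10 had 75.2 and 76.7 in wild type and 75.2 in ΔLEO1 in 10% serum, 64.5 and 70.4 in wild type and 61.8 and 57.4 in ΔLEO1 in 0.1% serum, with inputs between 59.2 and 72.0. The last of chromosome 6 went from 78.7 and 74.7 in wild type in 10% serum through 70.1 and 70.0 in 0.1% serum to 63.8 and 58.4 in ΔLEO1, with inputs at 64.1 to 72.1. In both, ΔLEO1 in 0.1% serum was the lowest group. The first 5 Mb of chromosome 5 had 79.0 and 77.4 in wild type and 64.0 in ΔLEO1 in 10% serum, 70.5 and 68.5 in wild type and 49.9 and 54.5 in ΔLEO1 in 0.1% serum. Here the ΔLEO1 inputs were lower too, 54.3 to 59.8 against 65.6 to 70.8 in wild type, without overlap. This end lies in a stretch that earlier results of these data had marked for lower ΔLEO1 inputs. The last 5 Mb of chromosome 22 went the other way: 92.5 in ΔLEO1 in 10% serum against 69.4 and 65.3 in wild type, and 70.4 and 69.9 against 61.1 and 67.2 in 0.1% serum. There the ΔLEO1 inputs, 67.7 to 74.5, lay above the wild type inputs, 61.1 to 64.4. The part of these input differences in the ChIP differences was not tested.

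**Figure D4:**
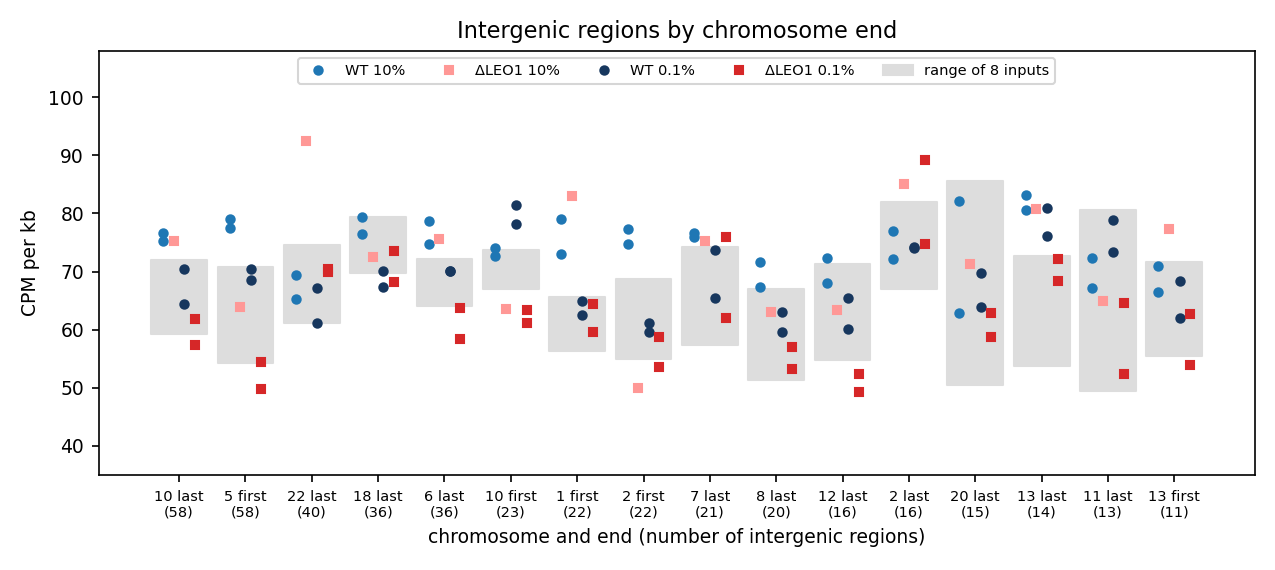
The y axis is density in CPM per kb and the x axis lists the 16 chromosome ends with 10 or more intergenic regions and their number. Points are ChIP libraries and grey boxes the range of the 8 inputs. At 10 ends the ΔLEO1 pair in 0.1% serum lies under the wild type pair, and chromosome 22 last shows the high ΔLEO1 library in 10% serum at 92.5.

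Runs at or near an end did not all share the direction of that end. The longest run does not lie wholly within the last 5 Mb of chromosome 10. The 22 regions of the longest run, on chromosome 10, had a density of 75.7 and 72.1 in wild type and 75.1 in ΔLEO1 in 10% serum, 60.2 and 69.1 in wild type and 64.3 and 52.0 in ΔLEO1 in 0.1% serum, with inputs at 50.9 to 73.4, so the genotypes overlapped in 0.1% serum. Of its 22 regions 13 had lower and 9 higher fitted values in ΔLEO1 in 0.1% serum, from −0.97 to 1.08 on the log2 scale, and the lowest adjusted p was 0.55 (edgeR). The run of 16 at chr10:130716179-131063420, inside the last 5 Mb of chromosome 10, went against that end in 0.1% serum, with 66.3 in both ΔLEO1 libraries above 56.2 and 65.2 in wild type. The run of 21 on chromosome 5 near LOC100506858 had 78.4 and 81.2 in wild type and 53.9 in ΔLEO1 in 10% serum, and 69.7 and 64.5 against 44.9 and 48.1 in 0.1% serum. The run of 17 on chromosome 8 near MIR1302-7 had 68.6 and 65.7 against 57.3, and 64.2 and 61.4 against 47.7 and 51.7, with inputs at 47.1 to 66.4. In both, every ΔLEO1 ChIP library lay below every wild type one. The inputs of the genotypes overlapped on chromosome 8. On chromosome 5 they were 49.2, 67.2, 50.9 and 55.8 in ΔLEO1 against 61.3 to 70.8 in wild type, so a single ΔLEO1 input reached the wild type range, and in 0.1% serum they did not overlap. The run on chromosome 5 lies in the stretch marked for lower ΔLEO1 inputs. At the run of 9 regions at chr2:2649337-2888438 near LINC01250 and MYT1L, a neuronal transcription factor gene, wild type in 10% serum had 79.3 and 76.998 and all other ChIP libraries 38.9 to 62.0, with inputs at 47.0 to 61.0.

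Some intergenic regions lay in stretches that were picked because ΔLEO1 inputs were low there. Earlier results of these data marked stretches on chromosomes 3, 4 and 5 for lower ΔLEO1 inputs, and 141 intergenic regions lay in them. Lower inputs there follow from that choice and are no separate evidence. The 13 on chromosome 3 had a ChIP density of 58.8, 68.2 and 72.4 in ΔLEO1 and 73.0 to 77.6 in wild type. Their inputs were 51.4 to 68.8 in ΔLEO1 and 68.2 to 82.3 in wild type. The 88 on chromosome 5 had a ChIP density of 61.1, 50.4 and 55.0 in ΔLEO1 and 69.7 to 79.4 in wild type, and the 40 on chromosome 4 had 62.1, 51.9 and 59.3 against 74.7 to 84.9. The inputs on chromosome 5 were 61.2 to 64.2 in ΔLEO1 and 67.9 to 71.3 in wild type. On chromosome 4 the ΔLEO1 inputs were 58.4 and 55.8 in 0.1% serum but 89.0 and 69.9 in 10% serum, the first being the highest of the 8, against 72.5 to 80.003 in wild type. Over the 141 regions the median fold change in 0.1% serum was −0.50 on the log2 scale in the ChIP, and over both sera −0.45 in the ChIP and −0.19 in the input. Outside the stretches, the ratio of ends to inner regions was 0.924 and 0.863 in ΔLEO1 and 0.999 and 0.994 in wild type in 0.1% serum. In 0.1% serum ΔLEO1 thus stayed below wild type without them. The ΔLEO1 library in 10% serum had 1.003 outside the stretches, above both wild type libraries in 0.1% serum. Over all intergenic regions its 0.994 lay between them.

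The first question put to single regions was which of them differed between ΔLEO1 and wild type in 0.1% serum. It was 1 region that rose and 1 that fell. So 2 of 2674 intergenic regions passed (edgeR quasi-likelihood test, Benjamini-Hochberg adjusted p under 0.05 over all 16092 regions), against 0.0621% of all regions. The median fold change of intergenic regions was 0.003 on the log2 scale and that of all regions 0.007. At an unadjusted p under 0.05 there were 259 (9.69%) against 8.33% of all regions. Of these, 44 of 64 at ends were lower in ΔLEO1, and 73 of 194 inner ones, against 591 of 1340 over all regions. In the stretches marked for lower ΔLEO1 inputs, all 20 such intergenic regions were lower. How many of these 20 lay at ends is not given here, so their part in the count at ends was not tested. DESeq2 called none and put 50 under an unadjusted 0.05, a count whose share of all regions is not given here.

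Over both sera, 10 intergenic regions passed, 3 higher and 7 lower in ΔLEO1, against 0.23% of all regions, and the 2 above were among them. At an unadjusted p under 0.05 there were 301 (11.3%) against 9.92% of all regions. DESeq2 called 0 with 91, the fit of ChIP over input called 0, and leaving out 1 library lowered the 10 calls to between 4 and 7. The median was −0.0004 against −0.002 for all regions. Every ΔLEO1 library lay below every wild type library in 5.61% of intergenic regions, and above in 3.44%. For all regions these shares were 4.98% and 3.65%. In called regions such a separation is no separate evidence, since the same values made the call. For 0.1% against 10% serum in wild type, 0 of 2674 passed in edgeR against 0% of all regions. Under an unadjusted 0.05 lay 187 (6.99%) against 7.27% of all regions, and DESeq2 called 0 with 18. In the inputs, 0 of the 2306 intergenic regions that passed the filter on low counts differed between genotypes in edgeR against 0% of all 14018. Under an unadjusted 0.05 lay 92 (3.99%) against 4.39% of all 14018, and DESeq2 called 0 with 11. For the difference of the serum response between genotypes, a term added later that rests on 1 ΔLEO1 library in 10% serum, edgeR called 0 intergenic regions against 0% of all regions. Under an unadjusted 0.05 lay 155 (5.80%) against 5.54% of all regions. No other tool was run on that term. For the DESeq2 counts under an unadjusted 0.05 the share of all regions is not given here.

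The region that rose lay at chr22:39564579-39565679, 5624 bp upstream of CACNA1I, which encodes a T-type calcium channel subunit. Its levels were 65.9 and 65.7 CPM in wild type and 131 in ΔLEO1 in 10% serum, 40.3 and 64.5 in wild type and 145 and 121 in ΔLEO1 in 0.1% serum. All ΔLEO1 libraries were above all wild type libraries, while the inputs overlapped, at 67.2 to 161 in wild type and 50.4 to 103 in ΔLEO1. The log2 fold change was 1.39 ± 0.33 (SE) in 0.1% serum (edgeR, adjusted p = 0.045) and 1.19 ± 0.26 over both sera (adjusted p = 0.011).

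The region that fell in 0.1% serum lay at chr5:6180243-6181329, 156.5 kb downstream of the start of the lncRNA gene LINC02145 and inside the chromosome 5 stretch. Its levels were 83.9 and 79.4 in wild type and 31.7 in ΔLEO1 in 10% serum, 102 and 71.3 in wild type and 17.7 and 27.9 in ΔLEO1 in 0.1% serum, from 6 to 38 reads. The input was lower in ΔLEO1 as well, 28.8 to 72.1 against 75.6 to 95.3 in wild type, without overlap. The log2 fold change was −1.99 ± 0.45 (edgeR, adjusted p = 0.023) in 0.1% serum and −1.67 ± 0.36 (adjusted p = 0.011) over both sera. A second region near LINC02145, chr5:6202018-6202759, had 59.9, 65.7, 48.3 and 71.3 in wild type and 22.6, 11.8 and 13.9 in ΔLEO1, with a fold change over both sera of −1.82 ± 0.47 (adjusted p = 0.049), and its inputs were 47.1 to 74.0 in wild type and 0 to 43.2 in ΔLEO1.

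The 7 regions that fell over both sera had a lncRNA or miRNA gene as their nearest gene, which was also so for 1022 (lncRNA) and 186 (miRNA) of the 2674 intergenic regions. They are not independent, since 2 share LINC02145 and 3 lie in the chromosome 5 stretch. At chr5:2163171-2164407, in the run near LOC100506858 and also in the chromosome 5 stretch, wild type had 120, 104, 91.2 and 74.7 and ΔLEO1 18.1, 53.2 and 13.9. The inputs overlapped there, at 63.5 to 96.6 and 49.4 to 90.1. The fold change was −1.88 ± 0.37 (edgeR, adjusted p = 0.0029), the smallest adjusted p of all intergenic regions. At chr8:141684633-141685586, 101 kb downstream of MIR1302-7 and in the run on chromosome 8, wild type had 44.9, 87.6, 51.0 and 57.7 and ΔLEO1 13.6, 14.8 and 13.9, which rest on 3 to 5 reads, and the inputs overlapped. The fold change of −2.07 ± 0.51 (adjusted p = 0.031) was the steepest of the called intergenic regions.

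At chr9:89999110-90000133, 23.9 kb downstream of MIR4290, wild type had 102, 76.7, 51.0 and 64.5 and ΔLEO1 18.1, 23.7 and 27.9 (fold change −1.72 ± 0.41, edgeR adjusted p = 0.026). At chr20:39310394-39311647, 86272 bp upstream of the lncRNA gene LINC01734, wild type had 68.9, 123, 83.2 and 71.3 and ΔLEO1 40.7, 20.7 and 27.9 (−1.47 ± 0.34, adjusted p = 0.022). At chr6:168724048-168725171, near the end of chromosome 6, 239.8 kb from LOC105378146 and overlapping a TSS window, wild type had 71.9, 90.3, 67.1 and 74.7 and ΔLEO1 22.6, 32.5 and 32.5 (−1.47 ± 0.38, adjusted p = 0.049). In each of these 3, every ΔLEO1 library was below every wild type library and the inputs of the genotypes overlapped.

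Beside CACNA1I, 2 regions rose over both sera. At chr10:127600227-127602538, 2311 bp wide and 52.0 kb from the start of NPS, the gene of neuropeptide S, wild type had 102, 71.2, 121 and 78.1 and ΔLEO1 213, 127 and 177, with inputs from 121 to 352. Its fold change was 0.92 ± 0.22 (edgeR, adjusted p = 0.025). At chr14:36054038-36055075, 15871 bp upstream of LINC00609, inside 2 RefSeq genes and over a TSS window, wild type had 53.9, 57.5, 72.5 and 74.7 and ΔLEO1 140, 115 and 121 (1.00 ± 0.26, adjusted p = 0.049), with overlapping inputs of 74.1 to 111 in wild type and 63.1 to 112 in ΔLEO1. At NPS the highest input, 352, was a ΔLEO1 library in 10% serum, and the other inputs lay at or below 216.

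**Figure D5:**
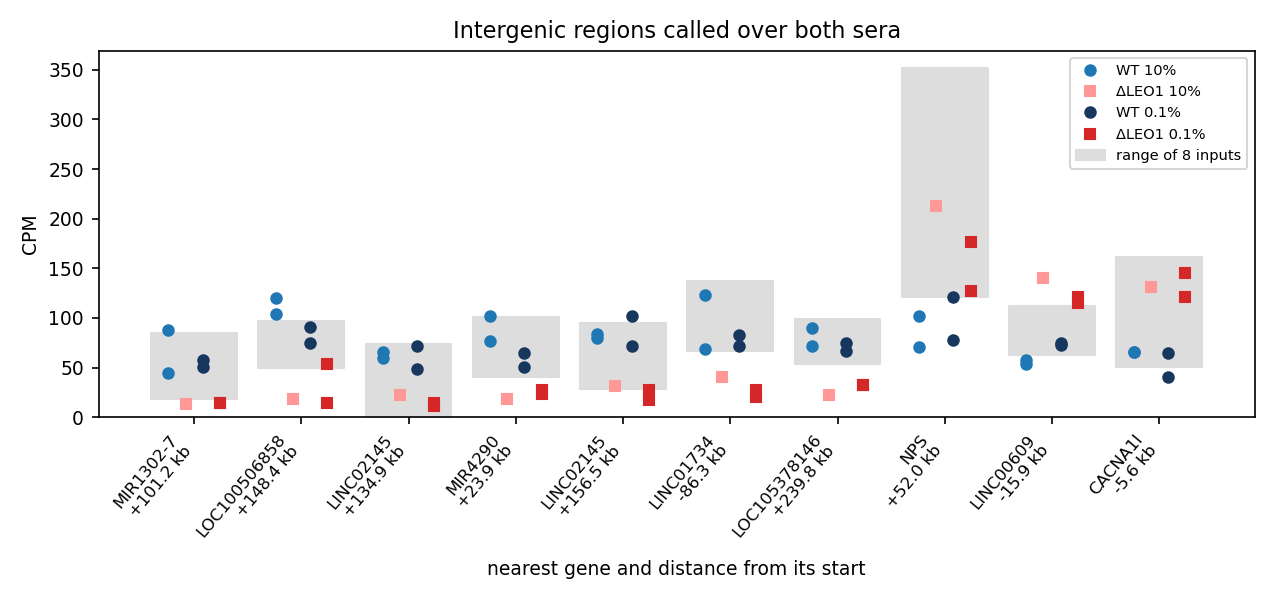
The y axis is the level in CPM and the x axis the 10 intergenic regions called between ΔLEO1 and wild type over both sera, by nearest gene and distance from its start. Points are ChIP libraries and grey boxes the range of the 8 inputs. In the 7 regions on the left every ΔLEO1 library lies below every wild type library, and in the 3 on the right above. The regions were called on these same values, so this separation is no separate evidence. Of all 16092 regions, 4.98% were below and 3.65% above without overlap.

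Larger fitted changes that did not pass the adjustment lay in regions with few reads. Among regions whose groups did not overlap in 0.1% serum, the highest values were 1.66 ± 0.53 on the log2 scale near RBFOX1, a splicing regulator gene, 1.65 ± 0.51 near RFPL4B and 1.60 ± 0.55 near CHSY1, a chondroitin synthase gene. The lowest were −2.33 ± 0.79 near GPRC5C, an orphan receptor gene, −2.33 ± 0.74 near LINC02370 and −2.27 ± 0.81 near GOT2, the gene of mitochondrial aspartate aminotransferase. Their adjusted p values lay between 0.23 and 0.32 (edgeR). At GPRC5C the levels were 59.0 and 34.0 in wild type and 8.9 and 9.3 in ΔLEO1 in 0.1% serum, while in 10% serum they were 47.9 and 35.6 in wild type and 27.1 in ΔLEO1.

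Over both sera the corresponding values were 1.32 ± 0.43 near LINC01571, 1.28 ± 0.42 near MIR1302-7 and 1.21 ± 0.43 at the same CHSY1 region, and −2.57 ± 0.72 near LINC02691, −2.43 ± 0.89 near TFF3, a trefoil factor gene, and −2.38 ± 0.63 near ICE1, which encodes a subunit of the little elongation complex. The region near ICE1 lay in the chromosome 5 stretch and missed the threshold narrowly (edgeR, adjusted p = 0.056). The region near MIR1302-7 with higher values (chr8:141657400-141658034: 72.4, 41.4 and 92.9 in ΔLEO1 against 21.9 to 33.0 in wild type) lay in the same run as the called region that fell, and its own adjusted p was 0.20 (edgeR).

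With serum in wild type, the highest values were 1.92 ± 0.64 near BLOC1S4, which encodes a subunit of a lysosome-related organelle complex, 1.60 ± 0.51 near MYH10, the gene of non-muscle myosin IIB, and 1.55 ± 0.47 near LRRC8C-DT. The lowest were −2.02 ± 0.65 near LINC02239, −1.60 ± 0.49 near LINC00603 and −1.59 ± 0.58 near PNKY. None passed (edgeR, adjusted p between 0.32 and 0.55). At MYH10 wild type had 18.0 and 24.6 in 10% serum and 67.1 and 64.5 in 0.1% serum, while ΔLEO1 had 27.1 in 10% serum and 65.1 and 32.5 in 0.1% serum.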

How the data were processed

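Raw read counts per region and per TSS window were made and deposited by the authors. Per the labels, reads were converted with bcl2fastq 2.20.0.422, aligned with STAR 2.7.10a to hg38 and dm6 and handled with HOMER. The peak settings, the treatment of duplicates and the libraries used to call peaks are not given in the sources used here. Regions were merged peaks, and coordinates are those of the table.

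Region counts were fitted with edgeR 4.0.16 in R 4.3.3 (filterByExpr, TMM, quasi-likelihood F test, Benjamini-Hochberg over all regions that passed), separately for 7 ChIP libraries (16092 regions, 3 residual degrees of freedom) and 8 inputs (14018 regions, 4 residual degrees of freedom). The ChIP library with 21 reads was left out. DESeq2, other library sizes, no filter, a replicate block and left-out libraries were alternatives. The fit was tested on simulated data. Replicate libraries differed by more than counting noise. Summaries used Python and pandas.

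The members, lists and tests were chosen with earlier results of these data known. Regions were named by fixed rules: every call, the 3 largest changes each way per ChIP comparison with an unadjusted p under 0.01 and groups apart, the densest, the highest ChIP to input ratios, the farthest, nearest and widest, and the longest run. Chromosome ends and printed promoters were added after seeing the data.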

Additional observations from a re-analysis of the deposited data

How the results depend on the processing

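The calls rested on few reads and on the tool. For ΔLEO1 against wild type in 0.1% serum, 2 intergenic regions were called. The count was 16 (0 higher) with TSS window totals as library sizes, against 92 of all 16092 regions. It was 1 without TMM, against 9 of all 16092 regions. It was 0 with DESeq2, 0 with all 8 ChIP libraries and 0 for ChIP over input, as it was over all regions. Leaving out wild type library A or either ΔLEO1 library in 0.1% serum gave 0, and wild type library B gave 1. Over both sera the 10 calls became 59 (1 higher) with TSS window totals, against 273 of all 16092 regions. They became 0 with DESeq2, 0 with all 8 ChIP libraries and 0 for ChIP over input, and 4 to 7 with 1 library left out. With TSS window totals the median log2 fold change over all regions was −0.302 in 0.1% serum and −0.271 over both sera. The shift to lower values was thus not particular to intergenic regions. The counts were 4 without wild type library B in 10% serum, without either wild type library in 0.1% serum or without ΔLEO1 library A in 0.1% serum, and 5 without ΔLEO1 library B. For serum in wild type the count was 0 to 1, the 1 without wild type library A in 10% serum, and for the input 0 to 1, the 1 without ΔLEO1 input B in 10% serum. None of the fold changes of the called regions and of the largest changes given for each ChIP comparison changed sign under the settings run for them. The signs of the other regions named were not compared across settings.

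Median log2 fold changes moved by more than the SD of library medians, 0.0103 in the ChIP and 0.0283 in the input, as follows. For ΔLEO1 in 0.1% serum (0.0030), the value was −0.0164 without TMM, −0.3049 with TSS window totals, 0.0154 with DESeq2, −0.0113 for ChIP over input, 0.0207 outside the 3 stretches and −0.0216 to 0.0230 with 1 library left out. Over both sera (−0.0004) these were −0.0232, −0.2676, 0.0171, −0.0111, 0.0202 and −0.0334 to 0.0179, and −0.0936 with all 8 ChIP libraries. For serum (−0.0259) they were −0.0129 without TMM, −0.1453 with TSS window totals, −0.0105 with DESeq2, −0.0119 with only the libraries compared, −0.0085 with all 8 ChIP libraries, −0.0566 for ChIP over input and −0.0372 to 0.0002 with 1 library left out. For the input (0.0190) it was 0.1117 with TSS window totals and −0.0218 to 0.0381 with 1 library left out. The cause of these moves was not tested.

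Without regions that overlap a TSS window, the share of reads was 13.9% in the ChIP and 14.4% in the inputs, since fewer regions were counted. With 1 library left out it was 16.06% to 16.12% and 16.56% to 16.62%. The ratio of ChIP to input beyond 500 kb over that within 5 kb, 0.917, was 0.906 to 0.933 with 1 library left out. The ratio of ends to inner regions in 0.1% serum, ΔLEO1 over wild type, was 0.884, and 0.857 to 0.910 with 1 library left out. It moved by less than its spread without TSS window overlaps, outside the stretches, without chromosome 5 and with ends of 2 or 10 Mb.

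The letters A and B did not pair the libraries (correlations of deviations −0.0020 to 0.0257). With the replicate block the calls were 2 in 0.1% serum, 11 over both sera, 0 for serum and 0 in the input. Over all regions they were 10, 29 and 5 of 16092 in the ChIP and 0 of 14018 in the input. No value over both sera could be had without the only ΔLEO1 ChIP library in 10% serum. The filter on low counts changed nothing in the ChIP, where all 16092 regions passed.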
